A study of Mus musculus with 16 samples.

Results

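The soleus, a postural calf muscle rich in slow fibres, was compared between a late and an early stage of hypoxia in male mice. The oxygen level was brought down to 10% in steps during the first week and then held for a second week. The early stage was day 3, while oxygen was still falling, and the late stage was day 14, at the end of the stable week. All arrays labelled day 14 (4 RNA samples, numbered 1 to 4) and day 3 (3 RNA samples, numbered 1, 2 and 4) were used, which is 7 of the 14 RNA samples of the study. The day 14 arrays lie on slide 2 and the day 3 arrays on slide 1. The slides are linked by RNA samples 1 and 2 of day 0, the time point before the oxygen was lowered, which were run on both slides, which makes 11 of 16 arrays with both days and the link. The other arrays, 3 of day 7 and 2 of day 0, were in the same fit, where those of day 0 also bear on the slide difference. Every sample, day 0 included, carries the treatment label hypoxia. Strain, age and the hour of sampling are not given in the sources used here. Whether the RNA samples are from separate mice is not given either, so the p-values measure only the spread between these RNA samples, which may be technical. The study's design states 4 samples per day, and a day 3 sample numbered 3 was not analysed here.

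Low oxygen stabilises hypoxia-inducible factors (HIF), which switch on genes for glucose use, vessel growth and, through the hormone erythropoietin, the making of red blood cells. Immature red cells carry RNA for haemoglobin and for haem synthesis into the blood and so into every tissue that holds vessels. Muscle also runs a circadian clock, in which CLOCK and BMAL1 (gene Arntl) drive the genes Dbp, Per1 to Per3, Nr1d1 and Ciart through E-box sequences, and these genes rise and fall over each day. A whole muscle piece holds fibres, vessels with blood, macrophages, connective tissue, tendon and fat, and in its RNA fewer cells of a type and less RNA per cell cannot be told apart.

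Each array held 62976 spots, and 48.3 to 55.3% of the 59305 spots that were not controls were well above background on slide 1, against 37.9 to 42.9% on slide 2. Slide 1 was brighter, with a 75th percentile of the spot intensity between 203 and 271, against 49.1 to 77.0 for slide 2. No spot was saturated, and the number of arrays limits the precision. Levels are given as log2 intensity relative to that percentile, after the fitted slide difference of the gene was taken off the slide 2 arrays, so they can be compared between samples but not between genes. The fitted slide difference had a standard deviation of 0.51 over the 22126 features tested. It was 0.54 in day 0 RNA sample 1 and 0.64 in RNA sample 2, and the features' slide differences in the 2 RNA samples correlated at 0.559, a description across features, which are not replicates. The day 3 arrays correlated with each other at 0.980 to 0.992, with RNA sample 4 the farthest from the others, and the day 14 arrays at 0.983 to 0.987. Markers of both muscle fibre kinds were present, with a summed level of the slow fibre list of 12.8 to 13.0 at day 3 and 12.9 to 13.1 at day 14, and of the fast fibre list of 13.6 to 13.8 and 13.5 to 13.8. These sums over different probes do not rank the fibre kinds.

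Few features passed the threshold between days 14 and 3, and this count does not measure how many genes differed. Of 22126 features, 164 passed (0.741%), 124 higher at day 14 (0.56%) and 40 lower (0.181%), by limma with Benjamini-Hochberg adjustment over all features and an adjusted p under 0.05. Of these, 84 differed at least 2-fold, 64 higher and 20 lower, and 100 carry a gene symbol, 74 higher and 26 lower. At an unadjusted p under 0.05 there were 3199 features, 1857 higher (8.39%) and 1342 lower (6.07%). For all 164 the slide-adjusted samples of day 14 lay wholly above or wholly below those of day 3, a pattern that 13.3% of all features showed upwards and 9.9% downwards. The median difference over all features was 0.01 (log2) with an SD of 0.46.

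The balance of higher and lower calls depended on the scaling, and the number on single RNA samples. Of the calls 75.6% were higher in the scaling used here. The split was 96 higher and 57 lower after quantile normalization, 95 and 69 with the 75th percentile of probes detected on all arrays, and 676 and 508 after normexp background correction. It was 11 and 18 when arrays were centred on the median, where the median of all differences was itself -0.22. The count of 164 fell to 68 without day 0 RNA sample 1, to 6 without day 0 RNA sample 2 and to 71 without day 0 RNA sample 3. It was 58, 46 and 266 without day 3 RNA samples 1, 2 and 4, and 100, 56, 93 and 59 without day 14 RNA samples 1, 2, 3 and 4. Leaving out day 7 RNA sample 1 gave 100. Without any slide term 2218 features passed, of which 74 were among the 164, and 46 of the 164 turned sign there. Of the 164, 3 were kept without day 0 RNA sample 2, and these were Hbb-b1, Dbp and Ankrd37.

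**Figure D1:**
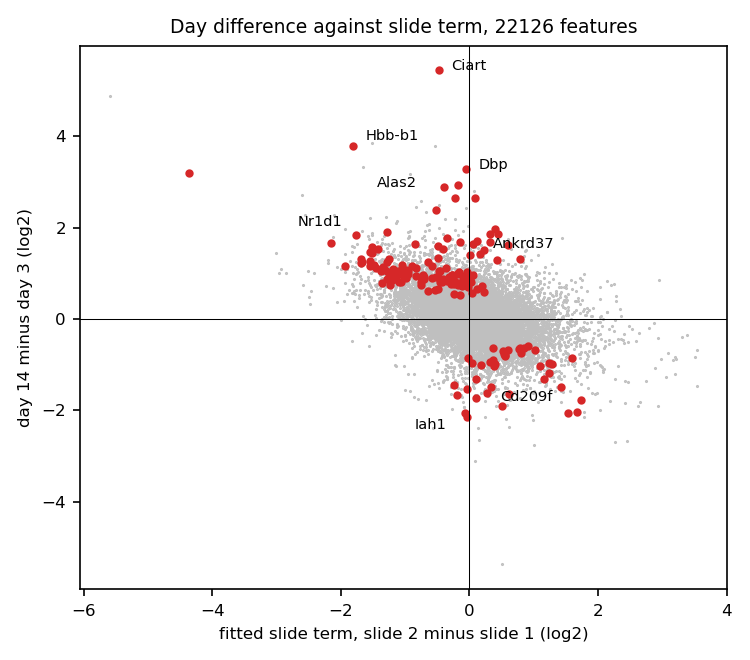
Day 14 minus day 3 (y axis, log2) against the fitted slide difference, slide 2 minus slide 1 (x axis, log2), with a point for each of 22126 features and red points for the 164 that passed. Both axes share the slide estimate, with opposite sign, and 46 of the red points have a slide difference larger than their day difference. Dbp and Ankrd37 lie near a slide difference of 0, and Nr1d1 and Hbb-b1 lie far to the left.

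Red cell genes rose at day 14. The alpha and beta globin genes, which encode the chains of haemoglobin, and Alas2, which encodes the first enzyme of haem synthesis in red cell precursors, were all higher in every day 14 sample than in any day 3 sample. Of 29 erythroid genes on the list, 19 were measured, and 9 of these were higher at day 14 and 0 lower (0.56% and 0.181% of all features). Globin probes among the 9 may pick up the same RNA, so the count can repeat a signal. The median difference of the list was 0.92, against 0.01 over all features, and 0.57 after normexp background correction. In 13 of the 19 all day 14 samples lay above all day 3 samples (13.3% of all features).

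The promoters of Hbb-bt, Hba-a1 and Alas2 are shown because these genes moved together, and they were searched for boxes known from globin genes. Each run is the 250 bases before the transcription start in RefSeq (GRCm38.p6), on the gene's strand. The promoter of Hbb-bt is chr7:103813924-103814173, minus strand. The promoter of Hba-a1 is chr11:32283422-32283671, plus strand. The promoter of Alas2 is chrX:150547167-150547416, plus strand. Capitals mark GATAAG (a form of the site of GATA factors), the CACCC box, the CCAAT box and TATAAA (letters of the TATA box). Each was marked on either strand.
Hbb-bt: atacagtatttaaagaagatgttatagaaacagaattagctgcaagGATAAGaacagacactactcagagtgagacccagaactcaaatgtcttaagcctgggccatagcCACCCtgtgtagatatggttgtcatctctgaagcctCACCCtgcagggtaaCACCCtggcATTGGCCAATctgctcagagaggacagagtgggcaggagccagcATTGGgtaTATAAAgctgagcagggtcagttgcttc
Hba-a1: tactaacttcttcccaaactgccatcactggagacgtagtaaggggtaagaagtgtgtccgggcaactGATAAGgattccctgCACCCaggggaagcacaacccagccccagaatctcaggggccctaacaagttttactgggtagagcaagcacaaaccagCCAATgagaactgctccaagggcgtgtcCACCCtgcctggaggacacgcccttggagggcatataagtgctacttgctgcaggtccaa
Alas2: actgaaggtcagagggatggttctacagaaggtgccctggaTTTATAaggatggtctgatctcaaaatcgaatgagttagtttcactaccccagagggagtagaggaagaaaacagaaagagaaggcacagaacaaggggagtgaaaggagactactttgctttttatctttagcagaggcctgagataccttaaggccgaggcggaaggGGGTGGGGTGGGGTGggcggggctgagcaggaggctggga

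Hbb-bt had 1 GATAAG, 3 CACCC boxes, 3 CCAAT boxes, 2 of which lie side by side on opposite strands, and 1 TATAAA. Hba-a1 had 1 GATAAG, 2 CACCC boxes and 1 CCAAT box. Alas2 had 3 CACCC boxes on the minus strand and no GATAAG in this window. It also had 1 TATAAA on the minus strand, 209 to 204 bases before the start. Other forms of the GATA site were not searched in any promoter. Of the 19 measured erythroid genes 12 had a promoter in the table, and 4 of them held GATAAG, against 6.55% of 32851 promoters. CACCC was in 10 of the 12 (52% of all promoters), CCAAT in 8 (33.8%) and TATAAA in 3 (12.4%). A list gene was counted if any of its promoters matched, while the shares count each promoter singly, so the units differ. A match is a description of the letters and not evidence of binding.

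Hbb-b1, an adult beta globin gene, lay at 3.25, 1.97 and 2.49 in the day 3 samples and at 6.73, 6.26, 6.07 and 6.36 in the day 14 samples. The groups were far apart, with the lowest day 14 sample above the highest day 3 sample. Hbb-b1 rose by 3.78 ± 0.38 (log2, SE, n = 3 and 4, 13.8-fold, adjusted p = 0.00274). It had a fitted slide difference of -1.81, and without the slide term its difference was 1.97. Day 0 samples lay between both groups at 4.30 to 5.17, and day 7 samples at 2.99 to 3.52.

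The probe annotated to Hbb-b2, an adult beta globin gene, was at 3.94, 2.97 and 3.04 at day 3. It was at 6.95, 6.10, 5.81 and 6.13 at day 14, a rise of 2.93 ± 0.37 (7.65-fold, adjusted p = 0.00546). The probe annotated to Hbb-bt, another name among the adult beta globins, was at 5.91, 5.45 and 5.06 and then at 8.70, 8.20, 7.74 and 7.85. Its rise was 2.65 ± 0.34 (6.28-fold, adjusted p = 0.00546). Both had slide differences near 0, at -0.18 for Hbb-b2 and 0.09 for Hbb-bt. Because globin genes resemble each other closely, a probe of one may also pick up RNA of another. The strain is not given, so which of these beta globin genes the mice carry is not known. Their probes may repeat the same signal. Leaving out day 0 RNA sample 2 ended both calls (adjusted p = 0.0695 for each), and the difference of Hbb-b2 kept within 2.70 to 3.25 over 29 alternatives.

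The alpha globin gene Hba-a1 was at 7.05, 6.20 and 6.16 at day 3 and at 9.69, 9.05, 8.65 and 9.09 at day 14, and rose by 2.65 ± 0.34 (6.28-fold, adjusted p = 0.00546). Its copy Hba-a2 rose by 1.85 ± 0.29 (3.61-fold, adjusted p = 0.0139), from 8.17 to 8.95 at day 3 to 10.15 to 10.79 at day 14. Day 14 sample 1 was the highest of its group for both. Hba-a1 passed in 27 of 29 alternatives and Hba-a2 in 24, and day 0 RNA sample 2 ended both calls, as did day 0 RNA sample 1 for Hba-a2.

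Alas2 lay at 1.16, 0.46 and 0.18 at day 3 and at 4.14, 3.44, 3.08 and 3.28 at day 14. No day 14 sample came near the day 3 range, and sample 1 was again the highest. Alas2 rose by 2.88 ± 0.36 (7.38-fold, adjusted p = 0.00546), in 28 of 29 alternatives, the exception being without day 0 RNA sample 2 (adjusted p = 0.0695).

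Membrane genes of the red cell moved less. Slc4a1, which encodes the anion exchanger band 3, lay at -2.43, -2.11 and -2.37 at day 3 and at -0.91, -0.69, -1.16 and -1.26 at day 14, a rise of 1.30 ± 0.26 (2.46-fold, adjusted p = 0.0426), which was 0.52 after normexp background correction. Ank1, which encodes the ankyrin that ties spectrin to band 3 and which muscle also expresses in a small form, rose by 0.92 ± 0.14 (1.89-fold, adjusted p = 0.0119), from 4.07 to 4.31 to 4.99 to 5.18. Both groups were tight, but the slide difference of Ank1 was -0.75, and its difference without the slide term was 0.16 (adjusted p up to 0.597). Tent5c, a poly(A) polymerase that lengthens RNA tails in maturing red cells, rose by 1.69 ± 0.33 (3.23-fold, adjusted p = 0.0377), from -0.03 to 0.25 to 1.40 to 2.43. The Slc4a1 call was lost in 18 of 29 alternatives, among them each leave-out except those of day 0 RNA samples 1 and 3. The Ank1 call was lost without day 0 RNA samples 1 or 2. That of Tent5c was lost in 8 of 14 leave-outs (it stayed without day 3 RNA sample 4, day 7 RNA samples 2 or 4 or day 14 RNA samples 1, 3 or 4). Slc4a1, Ank1 and the further genes of the list that the rule did not name were chosen after their values were seen.

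Other erythroid genes did not pass. Mkrn1, a ubiquitin ligase, had a difference of 1.06 ± 0.24 (adjusted p = 0.0606), Bpgm, the red cell enzyme that makes bisphosphoglycerate, of 0.61 ± 0.14 (adjusted p = 0.0679), and Slc25a37, the mitochondrial iron carrier mitoferrin, of 0.72 ± 0.22 (adjusted p = 0.151). Klf1 was not well above background on any array of days 3 or 14, and Tal1 lay at -0.74 to -0.35 at day 3 and at -0.42 to -0.16 at day 14 (0.24 ± 0.17, adjusted p = 0.534). The summed level of the 19 genes was 8.94 to 9.62 at day 3 and 10.9 to 11.7 at day 14, beside 9.57 to 10.1 at day 0, and the part of blood held in the muscle pieces was not tested. The count of 9 calls was 1 without day 0 RNA sample 2, 3 with the 11 arrays alone, and 5 each without the RNA sample as a block and after median centring.

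**Figure D2:**
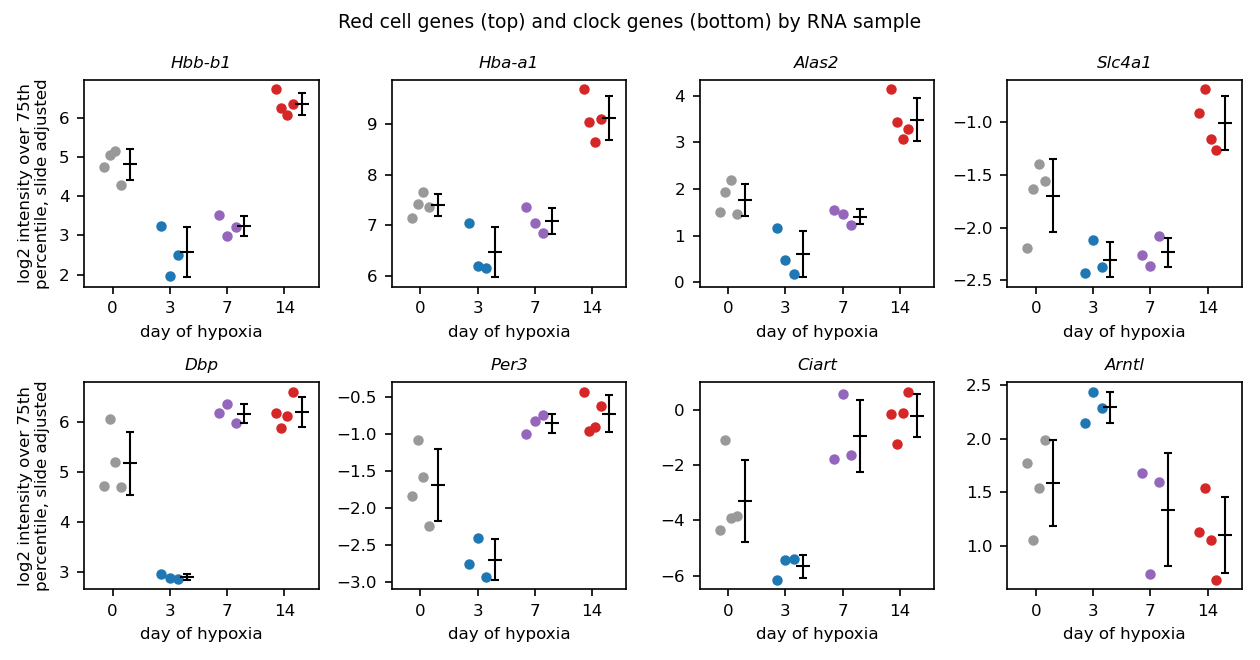
Levels of 4 red cell genes (Hbb-b1, Hba-a1, Alas2, Slc4a1, top) and 4 clock genes (Dbp, Per3, Ciart, Arntl, bottom) by day of hypoxia (x axis), as slide-adjusted log2 intensity over the array's 75th percentile (y axis), with a point per RNA sample and bars for mean and SD. The y axes do not start at 0. All 4 day 14 samples of Hbb-b1 lie at 6.07 or more and all day 3 samples at 3.25 or less, while Dbp had left its day 3 level of 2.87 to 2.97 by day 7. No day 3 array of Ciart was above background.

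Part of the clock arm driven by CLOCK and BMAL1 was higher at day 14 than at day 3. Of 10 measured, 4 rose (Ciart, Dbp, Per3, Nr1d1) and 0 fell (0.56% and 0.181% of all features), all 10 differences were above 0, and the median was 1.56 against 0.01 over all features, and 0.75 after normexp. In 9 of the 10 every day 14 sample lay above every day 3 sample (13.3% of all features). Against day 0 the list median was -0.77 at day 3 and 0.62 at day 14, so by the medians day 3 was also low. The hour at which muscles were taken is not in the labels, so hour and day cannot be told apart.

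The promoters of Ciart and Per3 are shown because they hold the sequence elements known from clock genes. Both runs are the 250 bases before the RefSeq start (GRCm38.p6), on the gene's strand, at chr3:95882229-95882478 (minus) for Ciart and chr4:151044666-151044915 (minus) for Per3. Capitals mark the E-box CACGTG, bound by CLOCK and BMAL1, in Ciart, and the D-box TTATGTAA, bound by DBP, HLF and TEF, in Per3.
Ciart: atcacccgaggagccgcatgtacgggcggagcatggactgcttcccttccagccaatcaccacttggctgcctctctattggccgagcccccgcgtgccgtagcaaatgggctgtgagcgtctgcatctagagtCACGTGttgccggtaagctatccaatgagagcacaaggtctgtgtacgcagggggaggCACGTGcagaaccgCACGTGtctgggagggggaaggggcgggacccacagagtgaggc
Per3: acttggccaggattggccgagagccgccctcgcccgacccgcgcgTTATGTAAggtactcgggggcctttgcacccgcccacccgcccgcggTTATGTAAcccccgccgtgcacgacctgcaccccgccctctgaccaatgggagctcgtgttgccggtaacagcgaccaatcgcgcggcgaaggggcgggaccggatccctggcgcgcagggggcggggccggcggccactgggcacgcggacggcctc

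Ciart held 3 E-boxes, and Per3 held 2 D-boxes. Both strands were searched. Of 10 clock genes 9 had a promoter in the table, and 4 of them held CACGTG (Bhlhe41, Ciart, Per1 and Tef), against 6.02% of 32851 promoters. TTATGTAA was in 1 (Per3), against 0.819%. Here too genes with any matching promoter stand beside shares of single promoters. Ciart was the only gene past the threshold among those with CACGTG. These matches describe letters and are not evidence of binding.

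Dbp, a clock-controlled transcription factor, lay at 2.97, 2.88 and 2.87 at day 3 and at 6.17, 5.88, 6.11 and 6.60 at day 14. The day 3 samples differed by far less among themselves than from any day 14 sample. Dbp rose by 3.28 ± 0.40 (9.75-fold, adjusted p = 0.00546), had a slide difference of -0.05, and passed in 29 of 29 alternatives, with differences of 2.90 to 3.50. Its other kept probe gave 2.52.

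Per3, a period gene, was at -2.76, -2.41 and -2.94 at day 3 and at -0.43, -0.96, -0.91 and -0.62 at day 14, a rise of 1.97 ± 0.33 (3.92-fold, adjusted p = 0.0207), 0.85 after normexp, lost when day 0 RNA sample 2 or day 3 RNA sample 1 was left out. Ciart, a repressor of CLOCK and BMAL1, was not above background on any day 3 array and was on 3 of 4 day 14 arrays, which makes it at least 10.1-fold higher on the scale used here (adjusted p = 0.039). This bound holds for that scale only, since the log2 difference of Ciart was 5.44 there, 3.06 in the authors' series table and 1.54 after normexp. The Ciart call was lost in 16 of 27 alternatives, and among the leave-outs it stayed only without day 3 RNA sample 4 or without day 7 RNA sample 2. Nr1d1, which encodes the repressor REV-ERB alpha, was at 1.56, 1.62 and 2.10 and then at 3.34, 3.41, 3.65 and 4.02, a rise of 1.84 ± 0.36 (3.59-fold, adjusted p = 0.0371). This last rise rests on the slide term. The slide difference of Nr1d1 was -1.76, its difference without that term was 0.09 (adjusted p = 0.924), and the call was lost in 17 of 29 alternatives. The Nr1d1 call was lost in 10 of 14 leave-outs (it stayed without day 3 RNA sample 4, day 7 RNA samples 2 or 4 or day 14 RNA sample 1).

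The other members of the arm did not pass. Per2 had a difference of 2.43 ± 0.79 (adjusted p = 0.182), with 1 of 3 day 3 arrays above background, and Per1 one of 1.29 ± 0.66 (adjusted p = 0.393). Bhlhe41, Nr1d2, Tef and Hlf lay between 0.48 ± 0.28 for Hlf and 0.91 ± 0.38 for Bhlhe41. Of the opposite arm, which peaks when the first is low, 0 of 6 measured genes passed, and the median was -0.31. Nfil3, a repressor that competes with DBP, was at 4.43, 4.15 and 3.34 at day 3 and at 2.61, 2.40, 3.15 and 2.26 at day 14 (-1.37 ± 0.41, adjusted p = 0.148). Arntl was at 2.15, 2.44 and 2.29 and then at 1.13, 1.54, 1.05 and 0.69 (-1.19 ± 0.36, adjusted p = 0.154). For both genes all day 14 samples lay below all day 3 samples, which 9.9% of all features showed. Members named here that the rule did not name were chosen after their values were seen.

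The count of 4 clock calls was 9 without the slide term, 2 after quantile normalization or median centring, and 1 with the 11 arrays alone or without the block. It was 1 without day 0 RNA sample 2 or day 3 RNA sample 1. It was 2 without day 0 RNA samples 1, 3 or 4, day 14 RNA samples 2, 3 or 4, day 3 RNA sample 2 or day 7 RNA sample 1.

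Among the targets of HIF, Ankrd37 alone passed, 1 of 34 measured (2.94%, against 0.56% of all features higher). The median of the list was 0.08, with 19 differences above 0 and 15 below. In 5 of the 34 all day 14 samples lay above all day 3 samples, and in 6 all lay below, against 13.3% and 9.9% of all features.

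Ankrd37 encodes a small ankyrin repeat protein induced by HIF. It lay at -0.14, 0.15 and -0.06 at day 3 and at 1.34, 1.42, 1.45 and 1.37 at day 14, and the day 14 samples spanned little more than 0.1. Ankrd37 rose by 1.41 ± 0.16 (2.66-fold, adjusted p = 0.00463), with a slide difference of 0.16, and passed in 29 of 29 alternatives (0.95 to 1.58). Its day 0 samples lay at 0.09 to 0.38 and its day 7 samples at 0.67 to 1.11, between both days. Its promoter is printed because this was the only HIF target past the threshold. The run is the 250 bases before the RefSeq start (GRCm38.p6, chr8:45999851-46000100, minus strand), and capitals mark ACGTG, the core of the HIF response element, searched on both strands. ACGTG also lies within the E-box CACGTG.
Ankrd37: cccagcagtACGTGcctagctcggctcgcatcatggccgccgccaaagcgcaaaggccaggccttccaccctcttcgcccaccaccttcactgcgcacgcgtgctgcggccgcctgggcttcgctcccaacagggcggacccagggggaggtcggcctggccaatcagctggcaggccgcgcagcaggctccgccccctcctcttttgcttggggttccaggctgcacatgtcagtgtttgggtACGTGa

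Ankrd37 held ACGTG at 2 places, 1 of them directly before the start. Of the 34 HIF targets 27 had a promoter in the table, and 17 of them held ACGTG, against 16.6% of 32851 promoters. The 17 are genes with a match in any of their promoters, while the share counts each promoter singly, so the units differ.

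Other HIF targets and related genes did not pass. Vegfa, the main growth factor of vessels, lay at 4.17 to 4.99 at day 3 and at 4.43 to 4.58 at day 14 (-0.12 ± 0.20, adjusted p = 0.83), and Bnip3, a mitophagy receptor, at 7.04 to 7.86 and 7.39 to 7.68 (-0.02 ± 0.22, adjusted p = 0.975). Slc2a1, the glucose transporter GLUT1, had a difference of -0.34 ± 0.24 (adjusted p = 0.553). Egln3, a prolyl hydroxylase that marks HIF for breakdown, was at 3.12, 3.38 and 2.41 and then at 3.72, 3.79, 3.64 and 3.51 (0.69 ± 0.29, adjusted p = 0.301). For Egln3 the groups did not overlap, but the spread at day 3 was wide. Angptl4, an inhibitor of lipoprotein lipase, was at 4.24, 4.59 and 2.69 and then at 1.05, 2.03, 1.92 and 0.85 (-2.38 ± 0.75, adjusted p = 0.166). Cited2, which competes with HIF for its coactivator, had a difference of 1.15 ± 0.50 (adjusted p = 0.307), and Hk2, a hexokinase chosen after its values were seen, one of 0.55 ± 0.20 (adjusted p = 0.229). None of the 23 glycolysis genes passed (median 0.21), nor did any of 11 genes of the HIF pathway itself (median -0.10).

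A few vessel genes rose, while the angiogenic list went both ways. Of 24 angiogenic and of 17 mural genes, 1 each was higher and 0 lower (0.56% and 0.181% of all features). The angiogenic median was 0.17, with differences from -1.43 to 1.03. In 7 of the 24 all day 14 samples lay above all day 3 samples, and in 5 all lay below (13.3% and 9.9% of all features). Notch4, a Notch receptor of endothelial cells, lay at 1.51, 1.49 and 1.39 at day 3 and at 2.41, 2.15, 2.39 and 2.60 at day 14, and rose by 0.93 ± 0.16 (1.90-fold, adjusted p = 0.0258), 1 of 24 angiogenic genes. Day 0 samples were at 1.91 to 2.29, close to day 14. Without the slide term the difference of Notch4 was 0.44. The call was lost when any of day 0 RNA samples 1 and 2 or day 3 RNA samples 1 and 2 was left out. Cox4i2, an oxygen-sensitive subunit of cytochrome oxidase on the mural cell list, rose by 0.87 ± 0.18 (1.83-fold, adjusted p = 0.0431), 1 of 17 mural genes, in 11 of 29 alternatives, with 0.47 where the slide term was left out. The Cox4i2 call was lost in 12 of 14 leave-outs (it stayed without day 3 RNA sample 4 or day 7 RNA sample 2).

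Gja4, the connexin of arterial endothelium, rose by 0.84 ± 0.18 (adjusted p = 0.0481), and Gpihbp1, which holds lipoprotein lipase on capillaries, by 1.02 ± 0.21 (2.03-fold, adjusted p = 0.0426). Both were chosen after their values were seen. Gpihbp1 was at 4.22, 3.88 and 3.78 and then at 5.19, 4.76, 4.91 and 5.07, with a slide difference of -0.04. Without the slide term the difference of Gja4 was 0.49. Gja4 passed in 7 and Gpihbp1 in 14 of 29 alternatives. The Gja4 call was lost in 13 of 14 leave-outs (it stayed without day 7 RNA sample 2). That of Gpihbp1 was lost in 11 of 14 leave-outs (it stayed without day 0 RNA sample 4, day 3 RNA sample 1 or day 7 RNA sample 2).

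None of the 29 endothelial markers passed (median 0.22). The smallest p-values were those of Rasip1, a regulator of vessel lumen (0.81 ± 0.17, adjusted p = 0.0504), and Ramp2, a partner of the adrenomedullin receptor (0.61 ± 0.14, adjusted p = 0.0603). Kdr, the main VEGF receptor, had a difference of -0.43 ± 0.13 (adjusted p = 0.145), and Pecam1, an endothelial adhesion molecule, of 0.22 ± 0.19 (adjusted p = 0.633). The difference of both turned sign without the slide term, to 0.32 for Kdr and -0.22 for Pecam1, and that of Pecam1 was also -0.01 after median centring. The summed endothelial level was 8.86 to 9.10 at day 3 and 9.10 to 9.27 at day 14.

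**Figure D3:**
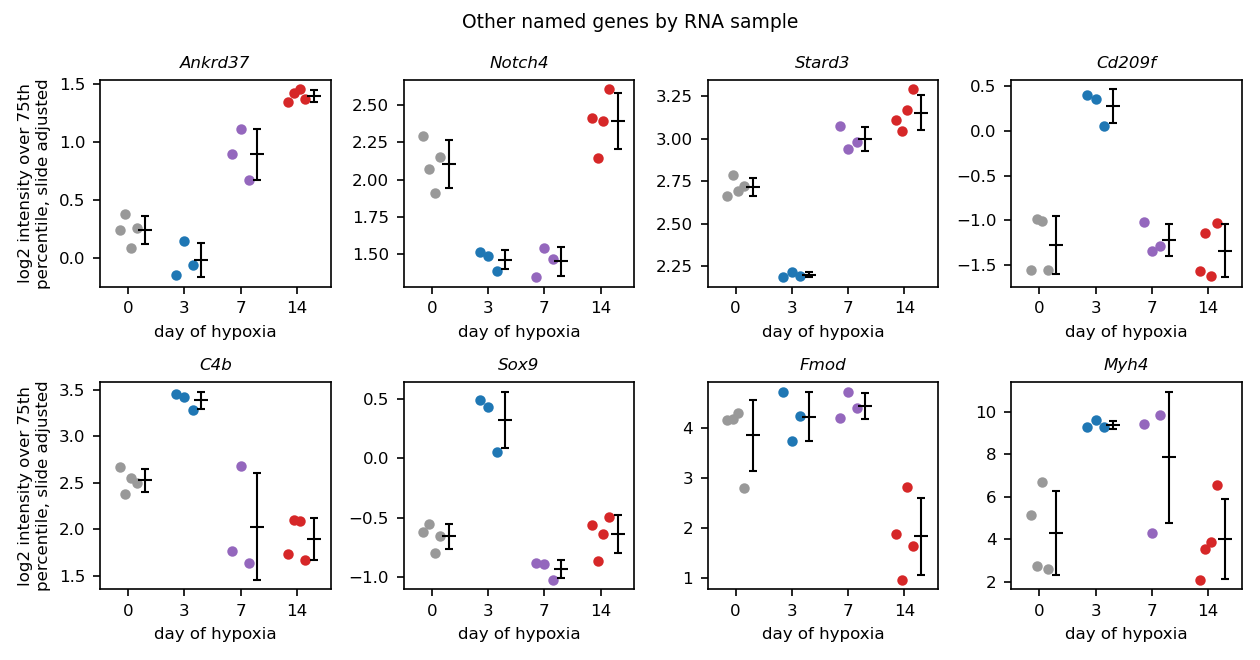
Levels of Ankrd37, Notch4, Stard3, Cd209f, C4b, Sox9, Fmod and Myh4 by day of hypoxia (x axis), as slide-adjusted log2 intensity over the array's 75th percentile (y axis), with a point per RNA sample and bars for mean and SD. The y axes do not start at 0. Cd209f lay at 0.06 to 0.41 at day 3 and at -1.62 to -1.02 at day 14, and Sox9 lay at 0.05 to 0.49 at day 3 and below 0 in every other sample. Myh4 at day 14 ranged from 2.10 to 6.57.

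Lectins of tissue macrophages fell. Cd209f, a C-type lectin, lay at 0.41, 0.36 and 0.06 at day 3 and at -1.56, -1.14, -1.62 and -1.02 at day 14. The groups stood more than 1 log2 unit apart, and day 0 lay with day 14, at -1.55 to -0.98. Cd209f fell by 1.62 ± 0.27 (3.06-fold, adjusted p = 0.0207), in 23 of 29 alternatives, and was lost when any of day 0 RNA samples 1 and 2 or day 3 RNA samples 1 and 2 was left out. Cd209d, a related lectin of the same family, fell by 0.85 ± 0.18 (1.81-fold, adjusted p = 0.0436), in 11 of 29. The Cd209d call was lost in 12 of 14 leave-outs (it stayed without day 7 RNA sample 4 or day 14 RNA sample 4). Clec10a, another macrophage lectin, chosen after its values were seen, was at 0.35, -0.11 and 0.43 and then at -1.18, -0.65, -1.13 and -0.93 (-1.20 ± 0.26, adjusted p = 0.0561).

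Of 33 macrophage genes 2 were lower and 0 higher (0.181% and 0.56% of all features), and the median was -0.62. That median was -0.12 when day 3 RNA sample 4 was left out and -1.02 when sample 2 of that day was. Lyz2, the lysozyme of macrophages, lay at 0.01, -0.31 and 1.71 at day 3, with sample 4 the highest of all samples, and at -0.98, -0.98, -0.61 and -0.91 at day 14 (-1.34 ± 0.57, adjusted p = 0.297). Ccr2, the chemokine receptor of monocytes, was at 0.30 in that sample and at -2.31 and -1.96 in the other day 3 samples (adjusted p = 0.489). Itgam, the integrin chain CD11b, went the other way, at 5.95, 5.65 and 6.15 and then at 6.80, 6.78, 6.54 and 6.49 (0.73 ± 0.17, adjusted p = 0.0635). Lyz2, Ccr2 and Itgam were chosen after their values were seen. The summed macrophage level was 6.62 to 7.81 at day 3 and 7.09 to 7.41 at day 14, so the groups overlapped. The sum is of linear intensities, so bright probes such as that of Itgam weigh heavily in it. Of the 33 differences 30 were below 0.

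Most matrix, tendon and fat genes had differences below 0, and 1 of them passed. Of 40 matrix genes 1 was lower and 0 higher (0.181% and 0.56% of all features). The lower gene was Mmp3, a metalloproteinase, at -2.69, -2.56 and -2.63 at day 3. Mmp3 was not well above background on any day 14 array (adjusted p = 0.0483), so no fold is given. It passed in 6 of 28 alternatives. The Mmp3 call was lost in 12 of 14 leave-outs (it stayed without day 0 RNA sample 1 or day 14 RNA sample 2). The median of the matrix list was -0.43, 36 of 40 differences were below 0, and in 13 all day 14 samples lay below all day 3 samples (9.9% of all features). The median was -0.22 when day 3 RNA sample 4 was left out, -0.66 when sample 2 of that day was, and -0.67 after median centring.

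Outside that list, C4b, a complement component, was at 3.46, 3.42 and 3.28 and then at 1.73, 2.10, 2.09 and 1.67, and fell by 1.49 ± 0.28 (2.81-fold, adjusted p = 0.0356). Ccdc80, a secreted matrix protein, fell by 1.01 ± 0.21 (2.01-fold, adjusted p = 0.0429), in 12 of 29 alternatives. Sox9, a transcription factor of cartilage and tendon progenitors, chosen after its values were seen, was at 0.49, 0.43 and 0.05 and then at -0.56, -0.86, -0.64 and -0.49, and fell by 0.96 ± 0.17 (1.95-fold, adjusted p = 0.0273). C4b passed in 19 of 29 alternatives and Sox9 in 22. The C4b call was lost in 8 of 14 leave-outs (it stayed without day 0 RNA sample 4, day 3 RNA sample 4, day 7 RNA samples 1, 2 or 4 or day 14 RNA sample 3). That of Ccdc80 was lost in 13 of 14 leave-outs (it stayed without day 7 RNA sample 2). That of Sox9 was lost without day 0 RNA samples 1 or 2, day 3 RNA samples 1 or 2 or day 14 RNA sample 2.

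None of the 15 tendon genes passed, with a median of -1.16, and of -0.70 after normexp. Fmod, a proteoglycan that organises tendon collagen, lay at 4.71, 3.73 and 4.22 at day 3 and at 1.89, 0.97, 2.83 and 1.65 at day 14 (-2.39 ± 0.57, adjusted p = 0.0772). Tnmd, a membrane protein of tendon cells, was at 1.62, 0.75 and 0.92 and then at -0.43, -0.94, 0.36 and -1.21 (-1.65 ± 0.54, adjusted p = 0.181). The groups did not overlap for either gene. The summed tendon level was 7.08 to 7.74 at day 3, 6.06 to 6.99 at day 14 and 6.38 to 7.64 at day 0, and the part of tendon in the pieces was not tested.

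None of the 24 adipocyte genes passed (median -0.42). Adipoq, the fat hormone adiponectin, was at 3.43, 3.20 and 2.56 and then at 0.34, 0.96, 2.03 and 1.17 (-1.94 ± 0.51, adjusted p = 0.105). Plin1, the coat protein of fat droplets, was at 1.07, 0.97 and 0.22 and then at -1.93, -0.71, -0.52 and -1.40 (-1.89 ± 0.52, adjusted p = 0.116). The summed adipocyte level was 9.55 to 10.1 at day 3 and 9.65 to 9.79 at day 14.

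Fibre type and energy genes gave no call. Of 17 slow fibre genes (median 0.34) and 20 fast fibre genes (median -0.02) 0 passed, and the same held for 78 genes of oxidative phosphorylation (median 0.09), 29 of the citric acid cycle (0.06), 35 of fatty acid oxidation (-0.14) and 75 cytosolic ribosomal proteins (0.01). Myh7, the slow myosin heavy chain, lay at 10.22 to 10.56 at day 3 and at 10.29 to 10.48 at day 14 (-0.02 ± 0.13, adjusted p = 0.964). Myh4, the fastest myosin heavy chain, was at 9.27, 9.60 and 9.29 at day 3 and at 2.10, 3.53, 3.86 and 6.57 at day 14. The groups did not overlap, but the difference of -5.37 ± 1.83 did not pass (adjusted p = 0.201), and day 7 samples of Myh4 lay at 9.44, 4.31 and 9.83. Pvalb, the calcium buffer of fast fibres, had a difference of -1.40 ± 0.59 (adjusted p = 0.3). Mstn, an inhibitor of muscle growth, was above background on 2 of 3 day 3 arrays and on no day 14 array (adjusted p = 0.278).

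Among the 40 lists, calls outside the groups above were 1 of 27 heat shock genes and 1 of 22 lipid synthesis genes. Both were higher at day 14, as were 0.56% of all features. Hspb2, a small heat shock protein of muscle, lay at 6.17, 6.07 and 6.30 and then at 6.83, 6.71, 6.76 and 6.69, and rose by 0.57 ± 0.11 (1.48-fold, adjusted p = 0.0356), in 13 of 29 alternatives, with 0.34 after median centring. The Hspb2 call was lost in 10 of 14 leave-outs (it stayed without day 0 RNA sample 4, day 3 RNA sample 4 or day 7 RNA samples 2 or 4). Lss, the enzyme that forms lanosterol on the way to cholesterol, passed with 0.74 ± 0.15 (adjusted p = 0.0377) through a slide difference of -0.75. No day 14 array had Lss above background, its difference without the slide term was -0.01, and no fold is given. The Lss call was lost in 10 of 14 leave-outs (it stayed without day 3 RNA sample 4 or day 7 RNA samples 1, 2 or 4). Of the other genes of the core panel, Igfbp2, a binding protein of insulin-like growth factors, had a difference of 1.12 ± 0.32 (adjusted p = 0.134), Tfrc, the transferrin receptor, of 0.47 ± 0.32 (adjusted p = 0.54), and Il1rl1, the receptor of interleukin 33, of -1.11 ± 0.44 (adjusted p = 0.263). In all, 21 of the 955 list members measured passed, against 164 of all 22126 features (0.741%).

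**Figure D4:**
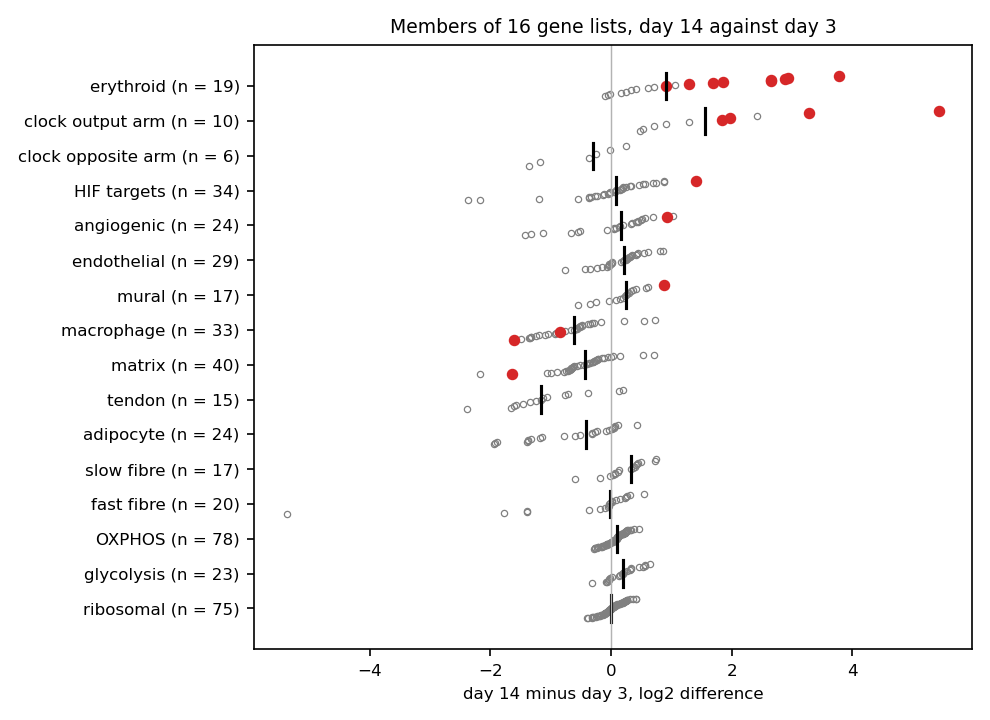
Day 14 minus day 3 (x axis, log2) for the measured members of 16 gene lists, with a point per gene, red for genes that passed, and a bar at the list median. The erythroid list (n = 19, median 0.92) and the clock output arm (n = 10, median 1.56) lie to the right, and tendon (n = 15, median -1.16) lies to the left with 0 genes past the threshold. Ciart is the clock point farthest to the right, and its position is uncertain because no day 3 array was above background.

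Further genes rose. Stard3, a sterol carrier of late endosomes, lay at 2.19, 2.21 and 2.19 at day 3 and at 3.11, 3.04, 3.17 and 3.29 at day 14, and rose by 0.96 ± 0.11 (1.94-fold, adjusted p = 0.00463), in 27 of 29 alternatives. Tmem86a, which encodes a lysoplasmalogenase, was at 1.41, 1.15 and 1.29 and then at 2.49, 2.27, 2.57 and 2.46, and rose by 1.17 ± 0.15 (2.24-fold, adjusted p = 0.00546), in 26 of 29, with 0.59 where the slide term was left out. Among the leave-outs, both were lost without day 0 RNA sample 2 only. Slc6a20a, an amino acid transporter, rose by 1.77 ± 0.36 (3.41-fold, adjusted p = 0.0434), and Ttbk1, a kinase of tau protein, by 1.65 ± 0.34 (3.14-fold, adjusted p = 0.0446), each in 9 of 28 alternatives. After normexp they had 0.58 and 0.47, and Ttbk1 had 0.80 in the authors' series table. The Slc6a20a call was lost in 13 of 14 leave-outs (it stayed without day 0 RNA sample 4). That of Ttbk1 was lost in 12 of 14 leave-outs (it stayed without day 7 RNA samples 1 or 2).

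Several falls ended near background. Iah1, an esterase gene, lay at -1.48, -1.60 and -1.73 at day 3 and was not above background on any day 14 array, which makes it at least 1.16-fold lower (adjusted p = 0.00581), and it passed in 26 of 28 alternatives. Gm4788 was at least 1.22-fold lower (adjusted p = 0.0452). The Iah1 call was lost without day 0 RNA sample 2. That of Gm4788 was lost in 11 of 14 leave-outs (it stayed without day 0 RNA sample 3, day 3 RNA sample 4 or day 14 RNA sample 3). Pon1, a paraoxonase, and Qtrt2, a subunit of the enzyme that puts queuine into tRNA, passed (adjusted p = 0.0367 and 0.0273) with no day 14 array above background, and no fold is given. Ypel2 fell by 1.73 ± 0.33 (adjusted p = 0.0356) and Tmem171 fell by 1.66 ± 0.30 (adjusted p = 0.0288), with 2 and 1 of 4 day 14 arrays above background. Their size is limited by that background, and after normexp it was -0.81 and -0.88. The Pon1 call was lost in 9 of 14 leave-outs (it stayed without day 0 RNA sample 4, day 3 RNA sample 2 or day 7 RNA samples 1, 2 or 4). That of Qtrt2 was lost without day 0 RNA samples 1 or 2, day 3 RNA sample 1 or day 14 RNA sample 4. That of Ypel2 was lost without day 0 RNA samples 1, 2 or 3, day 3 RNA samples 1 or 2 or day 14 RNA samples 2 or 3. That of Tmem171 was lost without day 0 RNA samples 1, 2 or 3, day 3 RNA samples 1 or 2 or day 14 RNA samples 2 or 4. Fam13c fell by 1.48 ± 0.28 (2.80-fold, adjusted p = 0.0356), with a slide difference of 1.42 and a difference of -0.06 without the slide term. Slc25a36, a mitochondrial carrier of pyrimidine nucleotides, was at 1.27, 1.47 and 1.07 and then at 0.45, 0.12, 0.14 and 0.26, and fell by 1.03 ± 0.19 (2.04-fold, adjusted p = 0.0345), with -0.64 where the slide term was left out. The Fam13c call was lost in 9 of 14 leave-outs (it stayed without day 0 RNA sample 4, day 3 RNA sample 4 or day 7 RNA samples 1, 2 or 4). That of Slc25a36 was lost in 8 of 14 leave-outs (it stayed without day 0 RNA sample 4, day 3 RNA sample 4, day 7 RNA samples 1, 2 or 4 or day 14 RNA sample 1).

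Day 7 divides the interval into days 3 to 7, with oxygen still falling, and days 7 to 14, the stable week. The parts are of unequal length, and both differences share the day 7 samples. Day 7 and day 3 lie on the same slide. Between days 3 and 7, 99 features were higher (0.447%) and 51 lower (0.23%), and between days 7 and 14, 247 were higher (1.12%) and 261 lower (1.18%). Whether a gene's differences in the 2 parts were unequal was not tested.

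Some clock genes, Stard3 and Ankrd37 passed in the first interval. Dbp rose by 3.26 ± 0.32 from day 3 to day 7 (adjusted p = 0.00146), beside a difference of 0.03 ± 0.40 from day 7 to day 14 that did not pass. Per3 rose by 1.84 ± 0.26 (adjusted p = 0.00675) and Stard3 by 0.80 ± 0.09 (adjusted p = 0.00146), beside 0.13 ± 0.33 and 0.15 ± 0.11 from day 7 to day 14, which did not pass. Tef and Nr1d2 passed between days 3 and 7 (1.16 ± 0.15 and 0.94 ± 0.16, adjusted p = 0.00434 and 0.0221), and Nfil3 fell by 2.20 ± 0.33 (adjusted p = 0.00965). Ankrd37 rose by 0.91 ± 0.12 by day 7 (adjusted p = 0.0057), and its further 0.50 ± 0.16 did not pass (adjusted p = 0.0926). Tmem86a rose by 0.92 ± 0.12 (adjusted p = 0.00445) before day 7. Nr1d1 did not pass in either interval (adjusted p = 0.0967 and 0.246), and neither did Per1, Per2, Hlf or Bhlhe41. Ciart passed upwards between days 3 and 7, in 17 of 26 alternatives, with no day 3 array above background. The Nr1d2 call was kept in 22 of 28 alternatives and lost without day 3 RNA samples 1 or 4 or day 7 RNA samples 1 or 2, and that of Nfil3 was lost without day 3 RNA sample 1 or day 7 RNA sample 1.

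Genes of several kinds, lectins among them, also passed there, downwards. The difference of day 7 minus day 3 was -1.49 ± 0.21 for Cd209f (adjusted p = 0.00737), -0.86 ± 0.14 for Cd209d (adjusted p = 0.0194) and -1.14 ± 0.21 for Clec10a (adjusted p = 0.0259). It was -1.26 ± 0.13 for Sox9 (adjusted p = 0.00146), -1.36 ± 0.22 for C4b (adjusted p = 0.02), -1.49 ± 0.24 for Tmem171 (adjusted p = 0.0173) and -0.85 ± 0.15 for Slc25a36 (adjusted p = 0.0232). From day 7 to day 14 these genes had differences between -0.17 for Slc25a36 and 0.29 for Sox9, and none of them passed. Clec10a passed by day 7 in 19, Slc25a36 in 20, Cd209d in 23 and C4b in 24 of 28 alternatives. Day 3 RNA sample 1 and day 7 RNA sample 1 each ended these 4 calls. Day 3 RNA sample 4 ended those of Clec10a, Cd209d, C4b and Tmem171, day 7 RNA sample 2 those of Clec10a, Cd209d and Slc25a36, and day 0 RNA sample 1 those of Clec10a and Slc25a36. Day 3 RNA sample 2 ended that of Slc25a36, day 7 RNA sample 4 that of Clec10a, and day 3 RNA sample 1 also those of Cd209f and Tmem171. Mmp3 passed downwards by day 7 as well, in 27 of 27 alternatives.

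Several red cell and vessel genes passed in the second week, and Hba-a2, Tent5c and Cox4i2 did not (1.18 ± 0.29, 1.31 ± 0.33 and 0.71 ± 0.18, adjusted p = 0.052, 0.0566 and 0.0551). Hbb-b1 rose by 3.11 ± 0.38 from day 7 to day 14 (adjusted p = 0.00913), after 0.67 ± 0.30 between days 3 and 7 (adjusted p = 0.313). Hbb-b2, Hba-a1, Hbb-bt and Alas2 rose by 2.24, 2.04, 1.96 and 2.08 (adjusted p = 0.0181, 0.0182, 0.0196 and 0.0196), after 0.70, 0.62, 0.69 and 0.80, none of which passed. Slc4a1 rose by 1.23 ± 0.26 (adjusted p = 0.0351) and Ank1 by 0.91 ± 0.14 (adjusted p = 0.0165). Notch4, Gja4 and Gpihbp1 rose by 0.94, 0.84 and 0.88 (adjusted p = 0.0182, 0.0336 and 0.0447), after differences within 0.14 of 0 that did not pass. Fmod fell by 2.60 ± 0.57 (adjusted p = 0.0377), after a difference of 0.21 ± 0.45 between days 3 and 7 that did not pass. Over 28 alternatives Gpihbp1 passed in 16, Gja4 in 17, Fmod in 18, Slc4a1 in 21, Alas2 and Notch4 in 23 and Hbb-bt in 24. Leaving out day 0 RNA sample 2 ended every second-week call named here, and day 0 RNA sample 1 ended all but those of Hbb-b1, Slc4a1 and Ank1. Day 7 RNA sample 1 ended those of Alas2, Hbb-bt, Slc4a1, Notch4, Gja4, Gpihbp1 and Fmod, and day 7 RNA sample 2 those of Alas2, Slc4a1, Gja4, Gpihbp1 and Fmod. Day 0 RNA sample 3 ended those of Gja4, Gpihbp1 and Fmod. Among the day 14 RNA samples, sample 1 ended the calls of Slc4a1, Gja4, Gpihbp1 and Fmod, sample 2 those of Slc4a1, Gpihbp1 and Fmod, sample 3 those of Slc4a1, Gja4 and Gpihbp1, and sample 4 those of Gja4, Gpihbp1 and Fmod. Without the slide term Hbb-b1, Ank1 and Notch4 did not pass.

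**Figure D5:**
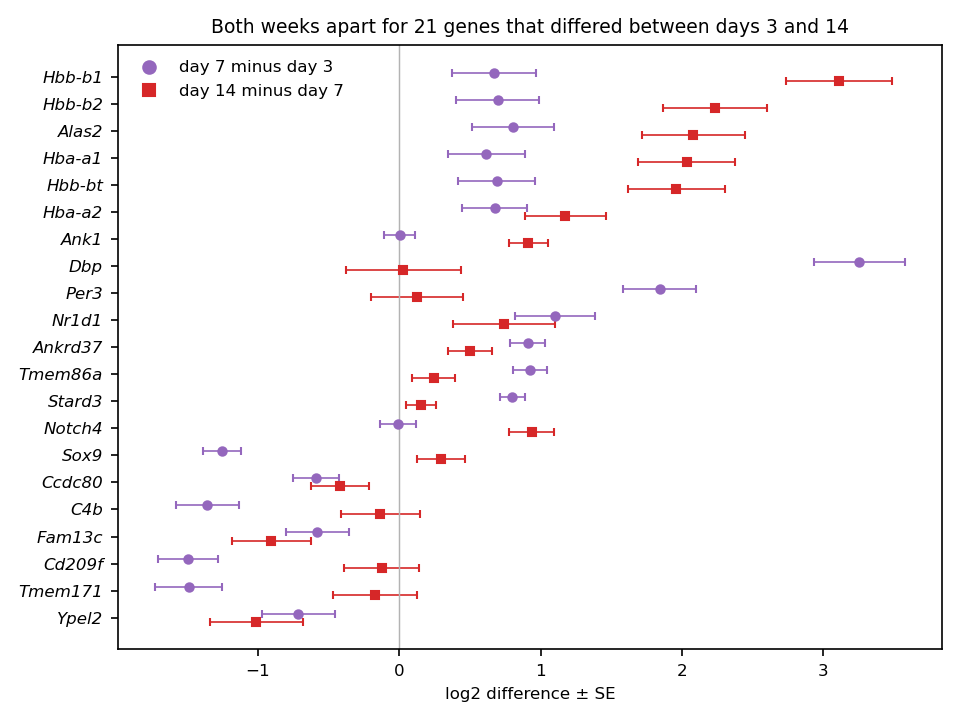
Log2 differences with SE (x axis) for 21 genes that passed between days 3 and 14, split at day 7, with circles for day 7 minus day 3 and squares for day 14 minus day 7. Dbp, Per3, Stard3, Sox9, C4b, Cd209f and Tmem171 have their circle far from 0 and their square near it. Hbb-b1, Alas2, Ank1 and Notch4 have the square farther from 0.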

How the data were processed

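RNA from the soleus of male mice was labelled with Cy3 and hybridised to 1-colour Agilent arrays, 1 per sample, with day 0 RNA samples 1 and 2 on both slides. The deposited values are the scanner's processed spot intensity from Feature Extraction, per the file headers. The authors' series table, deposited as linear intensity normalized between arrays by a method not given in the sources used here, served as an alternative after log2.

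Control and outlier spots were left out, log2 intensity was taken relative to the array's 75th percentile, spots were averaged per probe, and probes well above background on at least 3 arrays were kept, the brightest per gene. Of 55681 probes 27656 were named (49.7%). All 16 arrays were fitted with limma 3.58.1 (statmod 1.5.0, R 4.3.3), with terms for day and slide and a random block per RNA sample (correlation 0.448), and adjusted by Benjamini-Hochberg over 22126 features. Tables and figures used Python 3.11.15, pandas 2.3.3, NumPy 2.4.6 and Matplotlib 3.10.9. On simulated data for day 14 against day 3 with 22126 features, 34 of 67 changes of 1 log2 unit, 59 of 67 of 2 and 63 of 66 of 3 were called, with 3 false calls. The simulation drew normal noise at the fitted spread, gave every RNA sample the same slide difference and had no detection limit. Its false calls therefore do not measure errors among the calls in the real data.

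Members and the 40 lists were chosen with earlier results of these data known. The rule for named genes took the 12 largest rises and falls, the 10 smallest p-values, up to 3 genes per list and direction (2 where none passed) and a core panel, 120 genes in all, of which the text describes a part. A "leave-out" is a fit without 1 of the 14 RNA samples at the main correlation. At least N-fold bounds set the bright group's mean against the lowest signal well above background, or the probe's own where higher, per dim array. Alternatives covered scaling, background, filters, probes, block and slide term. The genome build of the array design was not used for coordinates.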

Additional observations from a re-analysis of the deposited data

Results flagged for a closer look

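In 8 of 154 groups of 4 samples tested among the genes described, the highest or lowest sample stood apart from the others by Dixon's criterion, and chance gives about 1 in 20. Values are slide-adjusted log2 levels. Mmp3 and Pon1 were not well above background on any day 14 array, so their gaps lie among values that the arrays did not resolve. Bpgm at day 0, sample 4, lay at 2.70 against 2.55 to 2.57 in the others, a gap of 0.831 of the range. Ciart at day 0, sample 2, lay at -1.09 against -4.33 to -3.83 in the others, a gap of 0.844 of the range. Ramp2 at day 0, sample 1, lay at 4.16 against 3.96 to 3.98 in the others, a gap of 0.884 of the range. Pecam1 at day 0, sample 3, lay at 0.99 against 1.11 to 1.12 in the others, a gap of 0.898 of the range. Itgam at day 0, sample 4, lay at 6.22 against 6.38 to 6.42 in the others, a gap of 0.833 of the range. Mmp3 at day 14, sample 2, lay at -3.71 against -4.53 to -4.41 in the others, a gap of 0.854 of the range. Fmod at day 0, sample 4, lay at 2.79 against 4.16 to 4.29 in the others, a gap of 0.915 of the range. Pon1 at day 14, sample 4, lay at -3.26 against -3.66 to -3.60 in the others, a gap of 0.841 of the range.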

How the results depend on the processing

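Over 29 alternatives, 37 of the 38 genes described that passed kept their sign and all 38 kept it under 5 scalings. Counting each gene with each alternative, 704 combinations kept the call, 385 lost it and 1 turned sign. Of the 39 that did not pass, 32 kept their sign, and 76 combinations passed. The 164 calls became 2218 without the slide term, 23 with the 11 arrays alone, 22 without the random block, 1184 with normexp, 29 with median centring, 439 with probes above background on all arrays and 315 with an intensity trend and robust prior, and 6 to 266 in the leave-outs. Normexp used median signals and was chosen after seeing the data. List members called (21) became 130 without the slide term, 5 with 11 arrays, 7 without the block, 88 with normexp, 9 with median centring, 39 with probes above background on all arrays, and 3 to 26 in the leave-outs. Genes named by the rule (32 called) became 10 with 11 arrays, 10 without the block, 56 with normexp, 14 with median centring and 3 to 31 in the leave-outs. Erythroid calls (9) became 3 with 11 arrays, 5 without the block, 5 with median centring and 1 to 9 in the leave-outs. Clock calls (4) became 9 without the slide term, 1 with 11 arrays, 1 without the block, 2 with quantile normalization, 2 with median centring and 1 to 4 in the leave-outs. The SD of the slide difference (0.513) was 0.698 with no filter, 0.400 with probes above background on all arrays, 0.360 in the authors' series table and 0.513 to 0.605 in the leave-outs. These differences turned sign. Without the slide term Bnip3 was 0.398, Kdr 0.324, Pecam1 -0.221, Myh7 0.304 and Lss -0.0085. Pecam1 was -0.0124 with median centring. With the mean over probes Bnip3 was 0.0494 and Tfrc -0.0097, and Bnip3 was 0.0214 without the block. In the leave-outs Bnip3 ranged from -0.273 to 0.138, Myh7 from -0.123 to 0.0419, Klf1 from -0.0497 to 0.572 and Vegfa from -0.351 to 0.0601. The cause was not tested.

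Same-numbered samples of days 3 and 14 correlated at -0.0227, 0.0787 and -0.0976 in their deviations from the group means. Pairs with other numbers correlated at -0.128 to 0.119. Whether same-numbered samples share more than a number cannot be told from so few arrays. The fit with the replicate number as a block gave 313 calls. The differences that passed between days 3 and 7 or days 7 and 14 among the genes described kept their sign in all 28 alternatives with day 7, but many lost the call in some, down to 13 of 28 for Itgam, 15 for Hspb2 and 16 for Gpihbp1 (all day 14 against day 7). Slide 2 has fewer spots above background, which limits low genes at day 14.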
